A study of Mus musculus with 36 samples.

Results

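The heat shock proteins of the HSP90 family, the small heat shock proteins and the mitochondrial chaperonin were followed in mouse liver after an overdose of acetaminophen. The set held 9 genes by name: Hsp90aa1, Hsp90ab1, Hspb1, Hspb8, Cryab, Hspd1, Hspe1, Trap1 and Hsf1. A probe set counted for a gene when it was annotated with that gene's symbol and no other. By this rule 7 of the 9 genes had a probe set, 18 probe sets in all out of 34945 with a single symbol, and these 7 were taken from 18193 genes so measured. Hsp90ab1 and Hsf1 had no such probe set in the annotation used and were not analysed here. With 1 probe set standing for each gene, all 7 passed the filter on low signals, although Cryab lay above the median of all values (30.8) on only 21 of 36 arrays.

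Livers came from mice of 4 strains labelled SJL, SMJ, DBA and C57. All mice were fasted overnight, and the treated ones were injected once into the abdomen with 300 mg/kg of acetaminophen, a painkiller whose overdose damages liver. Each strain gave 3 mice killed before dosing (0 h), 3 others at 3 h and 3 others at 6 h, so that 36 mice on 36 Affymetrix arrays made 12 groups. The series describes SJL as resistant to the drug and the other 3 strains as sensitive. Sex and age are not given in the sources used here. There was no group on vehicle alone, so hours after the dose, time of day and length of fasting cannot be told apart.

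HSP90 proteins are ATP-driven chaperones that hold kinases, steroid receptors and other clients in a form ready to act. Small heat shock proteins bind unfolding proteins without ATP and keep them from clumping. In the mitochondrial matrix Hspd1 (HSP60) forms a barrel in which imported proteins fold, Hspe1 (HSP10) is its lid, and Trap1 is the HSP90 of that compartment. Many chaperone genes are switched on by the transcription factor HSF1, which binds heat shock elements, arrays of the letters GAA and their complement TTC in alternating orientation. In acetaminophen overdose a reactive metabolite binds hepatocyte proteins, mitochondrial ones among them.

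Of the 7 genes, Hspd1 and Hspe1 lie back to back, and the stretch between their start sites is shown first because both genes, measured by separate probe sets, are set side by side below. RefSeq (GRCm38.p6) gave promoter windows for 5 of the 7 genes, and no window was found for Hsp90aa1 or Cryab. Between an annotated Hspd1 start at 55087932 and the Hspe1 start at 55088148 lay 215 bases. This stretch is chr1:55087933-55088147, read on the plus strand towards Hspe1, and its capitals mark 2 overlapping heat shock elements of 3 units.
Hspe1 and Hspd1: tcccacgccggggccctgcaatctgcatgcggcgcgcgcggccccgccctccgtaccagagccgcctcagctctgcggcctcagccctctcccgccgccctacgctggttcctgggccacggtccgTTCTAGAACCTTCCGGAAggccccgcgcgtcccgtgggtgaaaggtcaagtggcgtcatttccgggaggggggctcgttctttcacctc
The elements, TTCTAGAACCTTC at 55088059 to 55088071 and GAACCTTCCGGAA at 55088064 to 55088076, leave 76 and 71 bases between their ends and the Hspe1 start. An element of 3 units is GAANNTTC with GAA after 2 further letters, or its reverse complement, which is TTCNNGAA with TTC after 2 further letters. Both strands of every promoter window of 300 bases were searched, and 198 of 32851 windows (0.603%) held one. Another annotated Hspd1 start, at 55088243 and so past the Hspe1 start, had none of these letters in its window. The shorter forms GAANNTTC and TTCNNGAA, which lie within the longer ones, were found in 7.86% and 8.52% of windows.

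The other promoters differed in these letters. Hspb1 and Trap1 are shown because their signals behaved differently, with the 250 bases before each start printed in the direction of the gene and GAANNTTC in capitals. The Hspb1 stretch is chr5:135887669-135887918 on the plus strand, and the Trap1 stretch is chr16:4077811-4078060 on the minus strand. The annotated Trap1 start used lies inside the outer bound of the gene, 4077840, so the last bases of its stretch overlap the gene coordinates given below.
Hspb1: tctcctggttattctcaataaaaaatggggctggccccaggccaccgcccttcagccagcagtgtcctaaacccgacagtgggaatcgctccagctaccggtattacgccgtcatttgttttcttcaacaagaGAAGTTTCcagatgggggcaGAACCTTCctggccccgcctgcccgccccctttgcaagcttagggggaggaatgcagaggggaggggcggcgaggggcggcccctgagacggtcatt
Trap1: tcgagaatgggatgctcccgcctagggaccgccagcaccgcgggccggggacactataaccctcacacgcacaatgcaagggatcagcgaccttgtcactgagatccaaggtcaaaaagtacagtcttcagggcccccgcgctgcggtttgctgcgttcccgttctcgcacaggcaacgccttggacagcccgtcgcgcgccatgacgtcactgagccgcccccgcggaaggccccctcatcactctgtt
Hspb1 held GAANNTTC at 2 places, beginning at positions -117 and -97 from its start, and no element of 3 units. Trap1 held none of the searched forms in its window. Hspb8 held GAANNTTC at 1 place, just after its start. A match is a description of letters, and its part in any change of signal was not tested.

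Over the 36 arrays the 36 same-group pairs had Pearson correlations across genes between 0.914, in SJL at 3 h, and 0.963. Liver identity was checked with 7 hepatocyte markers, whose summed signal lay between 76878 and 149537 in every liver. A signal here is the MAS5 value of a probe set, which orders the same probe set between mice and says nothing about one gene against another. Changes are differences of mean log2(signal + 2.77), given with limma's standard error (SE). The adjusted p is that of limma, corrected by Benjamini and Hochberg's method over 13981 genes. A gene is said to have risen or fallen when this was under 0.05, and a mouse is named by strain and number. Statements that groups did not overlap describe 3 mice per group. Their share over all genes was counted only for SJL at 0 h.

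At 6 h, as the mean of the 4 strains, 5 of the 7 genes rose and none fell, beside 12.5% of all genes higher and 20.1% lower. Hspb8 rose 2.89-fold (log2 change 1.53 ± 0.13, adjusted p = 4.58e-10), Hsp90aa1 1.91-fold (0.93 ± 0.11, adjusted p = 1.97e-07), Hspb1 1.86-fold (0.89 ± 0.23, adjusted p = 0.00316), Hspe1 1.65-fold (0.72 ± 0.13, adjusted p = 7.47e-05) and Hspd1 1.44-fold (0.52 ± 0.06, adjusted p = 1.14e-07). Trap1 had a change of 0.09 ± 0.06 (adjusted p = 0.253) and Cryab one of -0.01 ± 0.29 (adjusted p = 0.993). The median change of the 7 genes was 0.72, against -0.05 over all genes tested. Of the 16 probe sets of these genes bright enough to test, 11 rose and none fell, beside 12.3% higher and 18.7% lower of all probe sets. Probe sets of the same gene read the same mice, so this count is not independent of the 5 genes. In whole liver, more RNA per cell and more cells of a type cannot be told apart.

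At 3 h, 3 genes had risen and none had fallen, beside 3.1% of all genes higher and 3.96% lower. Hspb8 rose by 1.07 ± 0.13 (adjusted p = 1.53e-06), Hsp90aa1 by 0.41 ± 0.11 (adjusted p = 0.0195) and Hspd1 by 0.21 ± 0.06 (adjusted p = 0.0273). After quantile normalization of the arrays only Hspb8 passed at 3 h, and Hspd1 also missed the threshold without any 1 of 5 mice (adjusted p up to 0.0567). Against 3 h, 4 genes stood higher at 6 h and none lower (6.92% and 9.53% of all genes): Hsp90aa1 by 0.52, Hspe1 by 0.52, Hspb8 by 0.46 and Hspd1 by 0.31. The 3 h and 6 h changes share the 0 h mice.

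These means joined strains that did not respond alike. The F test of limma, which asks whether the 6 h change was equal in the 4 strains, called 5 of the 7 genes, beside 5.25% of all genes, with adjusted p = 0.000389 for Hsp90aa1, 0.00459 for Hspb1, 0.00919 for Hspe1, 0.0145 for Hspd1 and 0.0223 for Hspb8. The Hspb8 call ended without C57180, C57233 or C57236 (adjusted p up to 0.0659). At 3 h the same test called none of them (1.97% of all genes), with Hsp90aa1 and Hspb8 at an unadjusted p of 0.00254 and 0.00613. The signals by strain and time show where the strains parted.

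**Figure D1:**
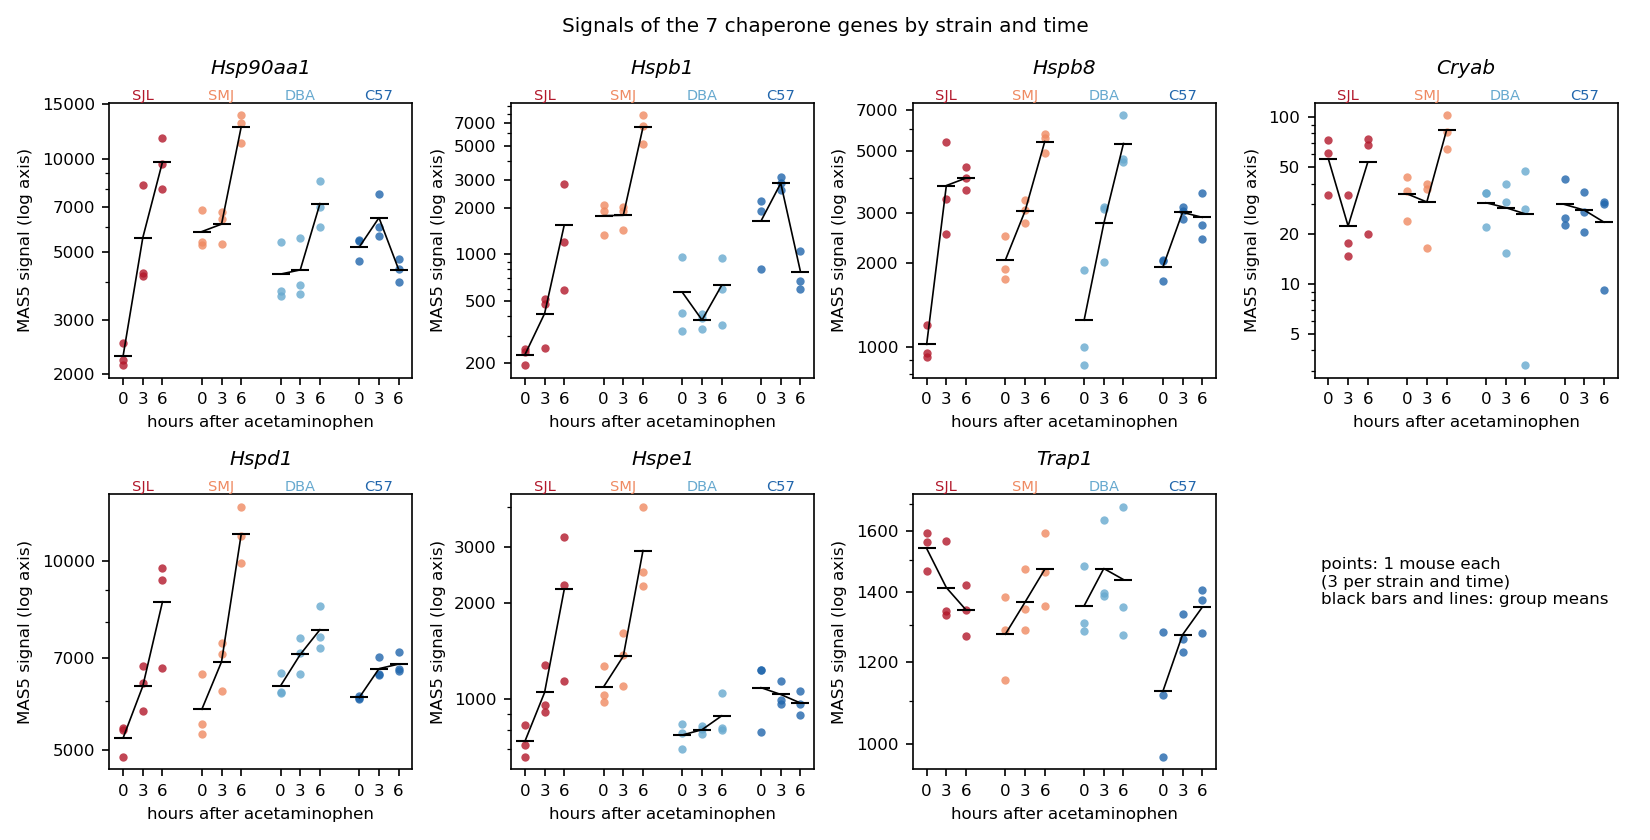
MAS5 signal (log axis, 1 scale per gene) of the 7 chaperone genes in each of 36 mice, by strain and hours after acetaminophen; points are mice, and black bars joined by lines are group means (n = 3). In SJL and SMJ the 6 h points of Hsp90aa1, Hspb1, Hspb8, Hspd1 and Hspe1 lie above the 0 h points, whereas in C57 the Hsp90aa1 points at 6 h, 3998 to 4727, overlap those at 0 h, 4661 to 5458.

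Hsp90aa1, at chr12:110691036-110696395, encodes the stress-inducible cytosolic HSP90. In SJL its signal was 2529.6, 2145 and 2222 at 0 h, 4267, 4178 and 8208 at 3 h, and 9643, 11664 and 7996 at 6 h. In SMJ it was 6820.4, 5235 and 5366 at 0 h, 6737, 5309 and 6369 at 3 h, and 13842, 13024 and 11215 at 6 h. Thus every SJL mouse at 3 h and 6 h stood above every SJL mouse at 0 h, while in SMJ only the 6 h mice stood clear. In DBA the signal was 3582, 5368 and 3737 at 0 h, 3911, 5535 and 3646 at 3 h, and 6990.3, 8459 and 6015 at 6 h. In C57 it was 5408, 5458 and 4661 at 0 h, 7684, 5633 and 6004 at 3 h, and 3998, 4727 and 4395 at 6 h. The C57 mice at 3 h lay above all C57 mice of the other times, and of those at 6 h 2 lay below all 0 h mice.

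The 6 h change of Hsp90aa1 was 2.07 ± 0.22 in SJL (4.21-fold, adjusted p = 3.45e-07), 1.13 ± 0.22 in SMJ (adjusted p = 0.000448), 0.77 ± 0.22 in DBA (adjusted p = 0.019) and -0.24 ± 0.22 in C57 (adjusted p = 0.545). After quantile normalization the SMJ change was 0.58 (adjusted p = 0.0626). The DBA call ended without DBA113, DBA115 or DBA168 (adjusted p up to 0.11). The SJL change exceeded the mean change of the other 3 strains by 1.52 ± 0.25 (adjusted p = 0.0143), where 0.315% of all genes were called higher. Hspb1 had a larger difference of 2.11 ± 0.53 that did not pass (adjusted p = 0.0735), and passed without SJL39, SJL48 or C57182 (adjusted p down to 0.0156). Hspe1 had 0.98 ± 0.30 (adjusted p = 0.14) and Trap1 -0.38 ± 0.13 (adjusted p = 0.199), so that 4 of the 7 had an unadjusted p under 0.05 by limma. Without SJL45 the Hsp90aa1 difference was 1.38 with an adjusted p of 0.0729. Before the dose SJL stood lower than the other strains, as given further on, and the 0 h mice enter both values. At 3 h the SJL change of 1.20 ± 0.22 exceeded the others by 1.05 ± 0.25 (adjusted p = 0.0141), beside 2.21% of all genes, and without SJL42, the mouse at 8208, by 0.74 with an adjusted p of 0.0503.

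Hsp90aa1 had 4 further probe sets. The bright ones, 1426645_at and 1437497_a_at, gave 6 h changes of 1.17 ± 0.13 and 1.16 ± 0.14 over the strains, 2.71 and 2.79 in SJL, and -0.31 and -0.37 in C57, all in the direction of the probe set used. The dim ones were 1433251_at, whose group means lay between 7.69 and 31.6 and whose change of 0.88 missed the threshold (adjusted p = 0.0513), and 1441827_x_at, which was too dim to be tested. In SJL 1433251_at averaged 23.0 at 0 h and 17.7 at 3 h, against the direction of the probe set used. Its SJL difference at 6 h had the opposite sign too. When all probe sets of Hsp90aa1 were averaged, the SJL differences at 3 h and 6 h were 0.46 and 0.90 and did not pass (adjusted p = 0.532 and 0.254).

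Hspb1, at chr5:135887919-135889563, encodes the small heat shock protein HSP25, the mouse counterpart of human HSP27. Its signal in SJL was 194, 246.8 and 236.9 at 0 h, 249.02, 519 and 479.7 at 3 h, and 1195, 2852 and 592 at 6 h. In SMJ it was 1329, 1914 and 2083 at 0 h, 1913, 2009 and 1431 at 3 h, and 7873, 5099 and 6750.3 at 6 h. Every 6 h mouse of both strains stood above all their mice of the earlier times, but the SJL mice at 6 h were spread from 592 to 2852. In DBA the signal was 421, 967 and 322 at 0 h, 391, 415 and 329 at 3 h, and 597, 948 and 353 at 6 h. In C57 it was 1913, 2213 and 805 at 0 h, 2880.0, 2582 and 3153 at 3 h, and 597, 675 and 1053 at 6 h. DBA mice overlapped between times, and in C57 the 3 h mice were the highest and did not overlap either other time.

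The 6 h change of Hspb1 was 2.48 ± 0.46 in SJL (5.57-fold, adjusted p = 0.000764) and 1.89 ± 0.46 in SMJ (3.71-fold, adjusted p = 0.0036). It was 0.20 ± 0.46 in DBA (adjusted p = 0.836) and -0.999 ± 0.46 in C57 (adjusted p = 0.177). Between 3 h and 6 h Hspb1 fell in C57, with a change of -1.92 ± 0.46 (adjusted p = 0.0134), where 2.54% of all genes fell, and this call ended without C57231, C57233 or C57236 (adjusted p up to 0.0671). When the fit held just the SJL arrays of 0 h and 6 h, the change had an adjusted p of 0.0919. The second probe set, 1425964_x_at, gave 2.84 for SJL, 1.87 for SMJ, 0.04 for DBA and -1.06 for C57.

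Hspb8, at chr5:116408491-116422864, encodes HSP22, a small heat shock protein that works with the co-chaperone BAG3 in the removal of misfolded proteins by autophagy. Its signal in SJL was 1198, 948 and 919.6 at 0 h, 2523, 5405 and 3382 at 3 h, and 4006, 4403 and 3620.2 at 6 h. In DBA it was 862, 1878 and 1000.3 at 0 h, 3158, 3111 and 2012 at 3 h, and 4563, 6726 and 4694 at 6 h. Neither strain had a treated mouse within the range of its 0 h mice. In SMJ the signal was 2483, 1747 and 1902 at 0 h, 2761, 3078 and 3336 at 3 h, and 4922, 5752 and 5570.1 at 6 h. In C57 it was 2023, 2037 and 1721 at 0 h, 2852, 3049.9 and 3171 at 3 h, and 2426, 2732 and 3552 at 6 h. Here too each treated mouse stood above the 0 h mice of its strain, so that of the 7 genes Hspb8 was the one with the same order of 0 h and treated mice in all 4 strains. The share of all genes with such an order was not counted.

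At 3 h Hspb8 rose in SJL by 1.82 ± 0.25 (3.53-fold, adjusted p = 2.44e-05) and in DBA by 1.20 ± 0.25 (adjusted p = 0.00762), the DBA call ending without any 1 of 4 mice (adjusted p up to 0.0974). Its 3 h changes were 0.59 ± 0.25 in SMJ (adjusted p = 0.549) and 0.65 ± 0.25 in C57 (adjusted p = 0.49). The SJL change at 3 h exceeded the mean of the others by 1.00 ± 0.29 (adjusted p = 0.0438), a call that ended without any 1 of 16 mice (adjusted p up to 0.191, without SJL40). At 6 h the change was 1.98 ± 0.25 in SJL (adjusted p = 6.68e-06), 1.42 ± 0.25 in SMJ (adjusted p = 0.000199), 2.16 ± 0.25 in DBA (adjusted p = 1.35e-06) and 0.58 ± 0.25 in C57 (adjusted p = 0.155). The second probe set, 1417014_at, gave 1.56 ± 0.12 as the mean of the strains, and the third, 1456434_x_at, gave 0.43 ± 0.24 (adjusted p = 0.183). In SMJ the third averaged 271 at 0 h and 232 at 6 h, where the probe set used rose.

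Cryab, at chr9:50745951-50756636, encodes alpha-B crystallin, a small heat shock protein abundant in lens, heart and skeletal muscle. It was dim in liver, from 3.27 to 102.7 over all mice. SJL mice had 19.9, 67.8 and 73.4 at 6 h, against 34.1, 72.6 and 61.2 at 0 h, and SMJ mice 102.7, 64.8 and 82 at 6 h, against 44, 36 and 24 at 0 h. DBA mice had 47.4, 3.27 and 28.3 at 6 h, against 34.9, 22 and 35.1 at 0 h, and C57 mice 30.2, 31 and 9.23 at 6 h, against 22.4, 42.6 and 24.8 at 0 h. The times overlapped in SJL, DBA and C57, and in SMJ the 6 h mice stood above the 0 h mice with a change of 1.21 ± 0.58 that did not pass (adjusted p = 0.147). Another Cryab probe set, 1416455_a_at, rose by 0.68 ± 0.24 over the strains (adjusted p = 0.0311) and by 1.62 in SMJ, so the probe sets of Cryab disagreed, and another, 1435837_at, was too dim to be tested.

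Skeletal muscle markers varied beside Cryab. The summed signal of 7 of them, 6 with a median above that of all values, ran from 40.1 to 4244 over the livers. Its group medians at 0 h, 3 h and 6 h were 1851, 89.4 and 1917 for SJL and 1215, 2134 and 3054 for SMJ. They were 85.9, 146 and 923 for DBA, and 123, 336 and 546 for C57. As deviations from the group means over 36 mice, Cryab and this sum had a Pearson r of 0.35 and a Spearman rho of 0.38 (permutation p = 0.0928 and 0.0662, adjusted over the 7 genes p = 0.592 and 0.382), with r at 0.41 without the 2 mice farthest from the median sum. The part of muscle RNA in the Cryab signal was not tested further.

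Hspd1, at chr1:55077833-55088243, and Hspe1, at chr1:55088148-55091317, encode the barrel and the lid of the mitochondrial chaperonin. Hspe1 had signals of 662, 720.2 and 834 at 0 h, 915, 960.4 and 1276 at 3 h, and 2274, 3211 and 1141 at 6 h in SJL. In SMJ they were 1272, 1032 and 979 at 0 h, 1376, 1099 and 1617 at 3 h, and 2496, 4005 and 2258 at 6 h. The 6 h mice of SJL and SMJ stood above the 0 h mice of their strain, although SJL48, at 1141, lay among the SJL mice of 3 h. In DBA the signals at 0 h, 3 h and 6 h ran from 702 to 835, 779.6 to 825 and 803 to 1049.7, and in C57 from 793 to 1236, 969 to 1140.5 and 892 to 1063. Both strains overlapped between 6 h and 0 h.

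Hspd1 had 6 h signals of 9758, 9341 and 6748 in SJL, against 4887, 5420.5 and 5391 at 0 h. In SMJ they were 12204, 10974 and 9922 at 6 h, against 6623, 5312 and 5499 at 0 h. In DBA they were 7584, 8488 and 7262 at 6 h against 6629, 6178 and 6193 at 0 h, and in C57 7160.0, 6736 and 6676 at 6 h against 6065, 6107 and 6031 at 0 h. The 6 h mice stood above the 0 h mice in each strain, by a wide gap in SMJ and a narrow one in DBA and C57.

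The 6 h changes of the pair ran alike in SJL and SMJ. Hspe1 rose by 1.46 ± 0.26 in SJL (2.75-fold, adjusted p = 0.000448) and 1.38 ± 0.26 in SMJ (2.6-fold, adjusted p = 0.000338), and Hspd1 by 0.70 ± 0.12 in SJL (1.63-fold, adjusted p = 0.000274) and 0.93 ± 0.12 in SMJ (1.9-fold, adjusted p = 3.5e-06). In DBA the changes were 0.19 ± 0.26 for Hspe1 (adjusted p = 0.707) and 0.29 ± 0.12 for Hspd1 (adjusted p = 0.107), and in C57 -0.13 ± 0.26 (adjusted p = 0.805) and 0.18 ± 0.12 (adjusted p = 0.391). When the fit held just the SJL arrays of 0 h and 6 h, the changes of Hspe1 and Hspd1 had adjusted p of 0.121 and 0.108. The SMJ change of Hspd1 exceeded that of the other strains by 0.54 ± 0.14 (adjusted p = 0.0346), beside 1.07% of all genes, and this call ended without any 1 of 6 mice (adjusted p up to 0.146, without SMJ101).

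A second Hspe1 probe set, 1450668_s_at, whose name marks it as able to bind related transcripts, gave 0.55 ± 0.07 over the strains, with 0.98 for SJL, 0.95 for SMJ, 0.33 for DBA and -0.06 for C57. Its changes in SJL and SMJ were smaller than those of the probe set used, and the directions were the same. Among single mice, the deviations of Hspd1 and Hspe1 from their group means had a Pearson r of 0.68 and a Spearman rho of 0.62 over 36 mice (permutation p = 0.00762 and 0.00288), the highest of 21 pairs of the 7 genes. Adjusted over the 21 pairs the p values were 0.0533 and 0.0605, which do not pass. Without the 2 mice whose Hspd1 deviation lay farthest from its median, r was 0.55. Mice far out for Hspe1 alone were kept. No pair passed after adjustment.

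**Figure D2:**
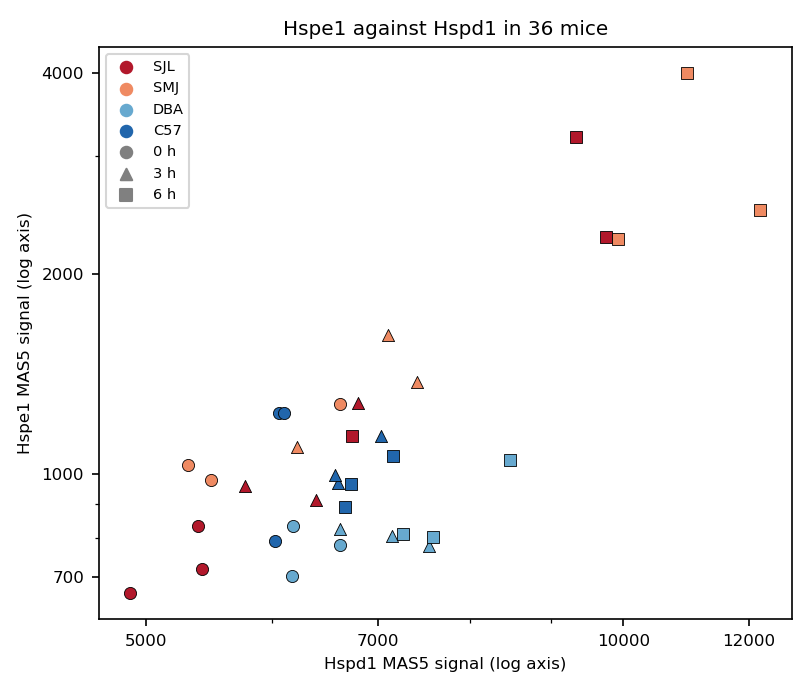
MAS5 signal of Hspe1 against that of Hspd1 (both log axes) in 36 mice, coloured by strain, with circles at 0 h, triangles at 3 h and squares at 6 h. At the upper right stand 2 SJL mice and 3 SMJ mice of 6 h, with Hspe1 between 2258 and 4005, and the DBA and C57 squares stand with Hspe1 at or below 1063.

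Trap1, at chr16:4039971-4077840, encodes the mitochondrial HSP90. Its signal stayed between 973 and 1689 over all mice. SJL mice had 1420.2, 1269 and 1346 at 6 h, against 1466, 1592 and 1563 at 0 h, and SMJ mice 1461, 1357 and 1595 at 6 h, against 1152, 1384 and 1287 at 0 h. DBA mice had 1272, 1689 and 1353 at 6 h, against 1306, 1283 and 1482 at 0 h, and C57 mice 1405, 1375 and 1278 at 6 h, against 1282, 1116 and 973 at 0 h. All 3 SJL mice at 6 h were below those at 0 h and in the other strains the times overlapped, with changes from -0.20 ± 0.12 in SJL (adjusted p = 0.362) to 0.28 ± 0.12 in C57 (adjusted p = 0.136), none past the threshold.

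By strain, 5 of the 7 genes had risen at 6 h in SJL (3.71% of all genes) and 5 in SMJ (8.58%). In DBA 2 had risen, Hsp90aa1 and Hspb8 (4.81% of all genes), and in C57 none (4.24%). None of the 7 had fallen at 6 h, where the share of all genes that fell was 3.31% for SJL, 12.3% for SMJ, 7.57% for DBA and 5.79% for C57. In C57, 3 of the 7 (Hspb1, Hspb8 and Trap1) had an unadjusted p under 0.05 by limma, Hspb1 downward and the others upward. At 3 h 2 genes had risen in SJL (Hsp90aa1 and Hspb8, 4.48% of all genes), 0 in SMJ (0.165%), 1 in DBA (Hspb8, 1.09%) and 0 in C57 (0.2%), with 2 in SMJ and 1 in C57 at an unadjusted p under 0.05. None had fallen at 3 h, where the share of all genes was 5.45% for SJL, 0.00715% for SMJ, 0.415% for DBA and 0.0787% for C57. Fitted on the 2 groups compared alone, the 3 h calls ended (adjusted p = 0.179 for Hsp90aa1 and 0.117 for Hspb8 in SJL, 0.309 for Hspb8 in DBA). Between 3 h and 6 h, 5 rose in SMJ (4.72% of all genes), 2 in SJL (Hsp90aa1 and Hspe1, 1.42%) and 1 in DBA (Hspb8, 1.29%). With only the arrays compared, Hspb1 in SMJ was the one of these calls that passed. The SJL calls ended without any 1 of 4 mice for Hsp90aa1 and of 26 for Hspe1 (adjusted p up to 0.16 and 0.268), and the DBA call without any 1 of 5 (up to 0.232). In SMJ the Hspb8 call ended without any 1 of 5 mice (adjusted p up to 0.104) and the Hspe1 call without SMJ102 (adjusted p = 0.0565).

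**Figure D3:**
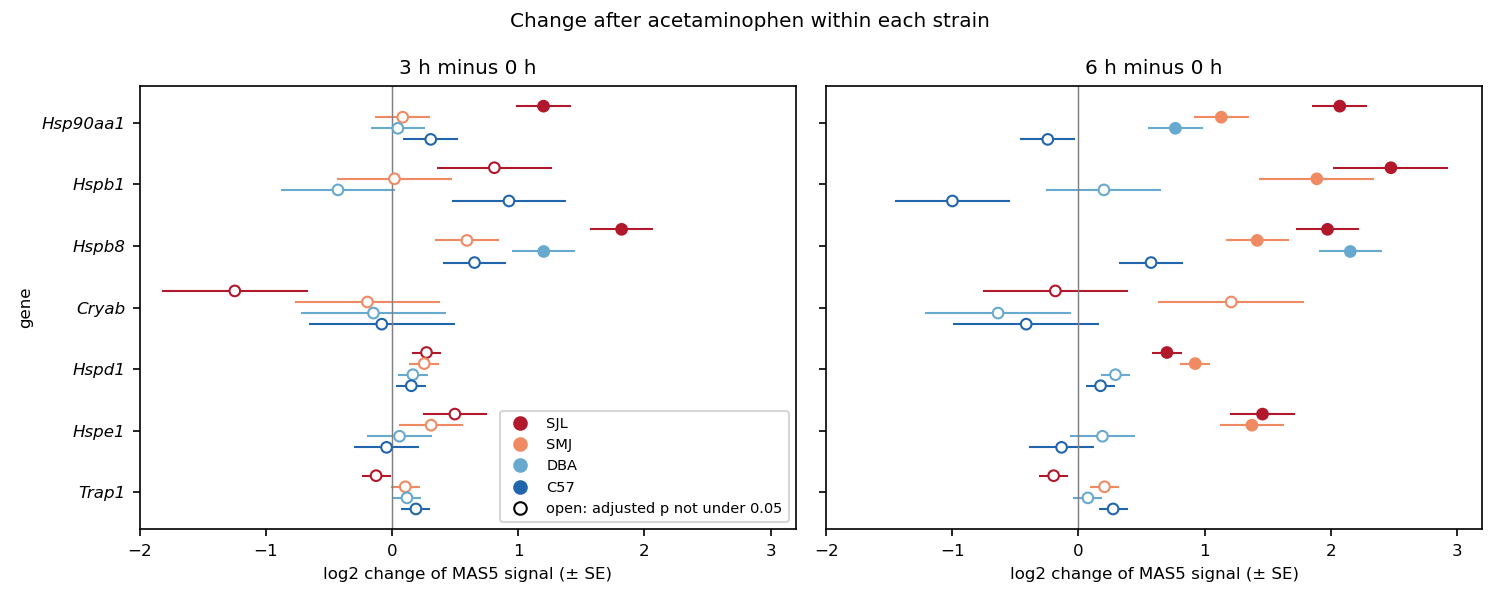
Log2 change of the MAS5 signal (± SE from limma) of each gene at 3 h and 6 h against 0 h, by strain; filled points have an adjusted p under 0.05. At 6 h the C57 points of Hsp90aa1, Hspb1 and Hspe1 lie below 0, at -0.24, -0.999 and -0.13, and the SJL points at 2.07, 2.48 and 1.46.

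The C57 change at 6 h was then set against the mean change of the other 3 strains, which tests the difference itself. It was lower for 5 of the 7 genes, beside 2.47% of all genes. The difference was -2.52 ± 0.53 for Hspb1 (adjusted p = 0.0059), -1.57 ± 0.25 for Hsp90aa1 (adjusted p = 0.00059), -1.27 ± 0.29 for Hspb8 (adjusted p = 0.0115), -1.14 ± 0.30 for Hspe1 (adjusted p = 0.0252) and -0.47 ± 0.14 for Hspd1 (adjusted p = 0.0469). The Hspe1 call ended without C57180, C57181, C57236 or C57237 (adjusted p up to 0.0792) and the Hspd1 call without any 1 of 28 mice (adjusted p up to 0.12). With all probe sets of a gene averaged, 2 of the 5 calls were left, those of Hspb1 and Hspe1, and Hsp90aa1 had -1.19 (adjusted p = 0.0514). The bright Hsp90aa1 probe sets gave -1.97 and -2.04 alone, the second probe sets of Hspb1, Hspb8 and Hspe1 -2.64, -1.33 and -0.82, and each of these passed. The third Hspb8 probe set, 1456434_x_at, had the opposite sign, at 0.16 ± 0.54 (adjusted p = 0.924). For DBA the same contrast passed for none of the 7 (0.529% of all genes higher and 0.143% lower), and 3 had an unadjusted p under 0.05 by limma.

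The 6 h levels themselves were compared in contrasts added after the values had been seen. In C57, 5 of the 7 stood below the average of the other strains (8.83% of all genes), among them Hsp90aa1 with a difference of -1.13 and Hspb1 with -1.16. In SMJ 5 stood above (9.57% of all genes): Hspb1 by 2.97 ± 0.37, Cryab by 1.53 ± 0.47, Hspe1 by 1.23 ± 0.21, Hsp90aa1 by 0.92 ± 0.18 and Hspd1 by 0.52 ± 0.10. In DBA Hspb1 and Hspe1 stood lower, at -1.64 and -1.01 (7.47% of all genes). In SJL no gene of the 7 differed from the mean of the others past the threshold (6.27% of all genes higher and 4.66% lower), with Hsp90aa1 at 0.40 ± 0.18 (adjusted p = 0.16), Hspe1 at 0.59 ± 0.21 (adjusted p = 0.0682) and 2 at an unadjusted p under 0.05. The 6 h C57 calls of Hspb1 and Hspb8 ended without C57233 or C57236 (adjusted p up to 0.141 and 0.0832), that of Hspb1 in DBA without DBA169 (adjusted p = 0.0609), and that of Cryab in SMJ without SMJ101 or SMJ103 (adjusted p up to 0.109).

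Before the dose the strains already differed. An F test between the 4 strains at 0 h called Hspb1 (adjusted p = 4.2e-05), Hsp90aa1 (adjusted p = 0.000178), Hspb8 (adjusted p = 0.00546) and Trap1 (adjusted p = 0.0218), beside 26.1% of all genes. Hspb1 averaged 225.9 ± 28.1 in SJL at 0 h, against 1775 ± 396 in SMJ, 570.0 ± 348 in DBA and 1644 ± 742 in C57 (SD, n = 3 each). Hsp90aa1 averaged 2299 ± 204 in SJL at 0 h, against 5807 ± 879.9 in SMJ, 4229 ± 989.8 in DBA and 5176 ± 446 in C57. For both genes all 3 SJL mice lay below the other 9, which held for 3.57% of all genes.

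As a contrast, SJL at 0 h minus the mean of the other strains was -2.28 ± 0.37 for Hspb1 (adjusted p = 0.000145), -1.12 ± 0.18 for Hsp90aa1 (adjusted p = 0.0001), -0.71 ± 0.21 for Hspb8 (adjusted p = 0.0225) and 0.31 ± 0.09 for Trap1 (adjusted p = 0.0305). These were 3 genes lower and 1 higher, beside 5.81% and 6.27% of all genes. The second probe set of Trap1, 1437379_x_at, gave -0.21 ± 0.13 (adjusted p = 0.344), so the direction for Trap1 rests on the probe set chosen. The Hspb8 call ended without SJL2 or SJL4 (adjusted p up to 0.116) and the Trap1 call without any 1 of 6 mice (adjusted p up to 0.136). Averaging all probe sets left Hspb1 alone, with Hsp90aa1 at -0.50 (adjusted p = 0.212), while the bright Hsp90aa1 probe sets gave -1.32 and -1.20 (adjusted p = 0.0002 and 0.00106).

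SMJ at 0 h stood above the mean of the other strains for Hspb1 by 1.64 ± 0.37 (adjusted p = 0.00456) and for Hsp90aa1 by 0.65 ± 0.18 (adjusted p = 0.018), beside 4.63% of all genes higher, and the Hsp90aa1 call ended without SMJ56 (adjusted p = 0.127). C57 stood above for Hspb1 by 1.36 ± 0.37 (adjusted p = 0.0151, 5.82% of all genes) and differed for Trap1 by -0.31 ± 0.09 (adjusted p = 0.0292, 6.39%). The C57 call of Hspb1 ended without C57180 or C57181 (adjusted p up to 0.119) and that of Trap1 without any 1 of 4 mice (adjusted p up to 0.289). The second Trap1 probe set had the opposite sign here too, at 0.16 ± 0.13 (adjusted p = 0.488). For Hspb1 at 0 h the order of group means was SMJ, C57, DBA and SJL, with SMJ and C57 mice overlapping, DBA overlapping C57, and only SJL clear of the rest. These contrasts share mice with each other and with the changes at 3 h and 6 h.

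Chaperones and partners outside the set were taken from lists of the HSP90, HSP70 and mitochondrial systems, each counted first at 6 h as the mean of the 4 strains, where 12.5% of all genes rose and 20.1% fell. Of 14 tested HSP90 co-chaperones, which load clients onto HSP90 or pace its cycle, none rose and 4 fell, a count near the 20.1% of all genes, with 6 at an unadjusted p under 0.05. The 4 were Ahsa1 (-0.27 ± 0.07), an activator of its ATPase, the related Ahsa2 (-0.56 ± 0.13), Tsc1 (-0.39 ± 0.10) and Sugt1 (-0.18 ± 0.07). The list median was -0.11, against -0.05 over all genes. Of 8 HSP70 and HSP110 genes 5 rose: Hspa1a by 4.33 ± 0.45 and Hspa1b by 1.69 ± 0.30, the inducible HSP70s, whose near-identical sequences leave their probe sets uncertain, Hsph1 by 0.97 ± 0.23, Hspa8 by 0.43 and Hspa4 by 0.34.

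Of 9 HSP40 and BAG genes, the partners that steer HSP70, 5 rose and 1 fell. Dnajb1, an HSP40, rose by 3.26 ± 0.22, Bag3, the partner of Hspb8, by 1.84 ± 0.17 and Bag2 by 0.62 ± 0.12, and Dnajc7 fell, at -0.34 ± 0.06. Of 7 other small heat shock proteins 4 were bright enough to test and none passed by limma, with 3 at an unadjusted p under 0.05 and values from -0.50 for Hspb2 to 0.55 for Hspb7. Of 12 other mitochondrial chaperones and proteases none rose and 3 fell: Clpx, the unfoldase of the ClpXP protease, at -0.79 ± 0.10, the HSP40 Dnaja3 at -0.33 and the inner membrane protease Yme1l1 at -0.26, while the matrix HSP70 Hspa9 had 0.12 ± 0.06 (adjusted p = 0.125). The 3 that fell are near the share of all genes, and the list median was -0.10, against -0.05 over all genes.

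Of 8 subunits of the cytosolic chaperonin 1 fell, Cct8 at -0.18. Of 5 heat shock factors and regulators 4 were tested, none passed by limma and none had an unadjusted p under 0.05. Of 3 chaperones of the endoplasmic reticulum Hspa5 rose by 0.52 ± 0.11, and Hsp90b1, the HSP90 of that compartment, had -0.03 ± 0.10 (adjusted p = 0.88). Some counts near 0 moved by 1 or 2 genes when 1 mouse was left out or the processing was altered. Strain contrasts called for the 7 genes were called in some of these lists too. At 0 h SJL stood lower for 4 of 14 HSP90 co-chaperones, 4 of 8 HSP70 and HSP110 and 4 of 8 cytosolic chaperonin genes. SMJ stood higher for 7, 4 and 3 of these, and in these lists neither had a call the other way. The other lists were mixed. For SJL 1 of 9 HSP40 and BAG and 2 of 12 mitochondrial genes were lower. Higher for SJL were 1 of 4 other small heat shock proteins and 1 of 3 reticulum genes. For SMJ 2 HSP40 and BAG, 3 mitochondrial and 1 reticulum genes were higher, and 1 HSP40 and BAG and 1 mitochondrial gene lower. Of all genes 5.81% were lower and 6.27% higher for SJL, and 4.78% lower and 4.63% higher for SMJ. The C57 difference at 6 h was lower for 3 of 8 HSP70 and 4 of 9 HSP40 and BAG genes (2.47% of all genes). No gene of the other lists passed in this contrast, among them the 14 HSP90 co-chaperones and the 12 mitochondrial genes.

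**Figure D4:**
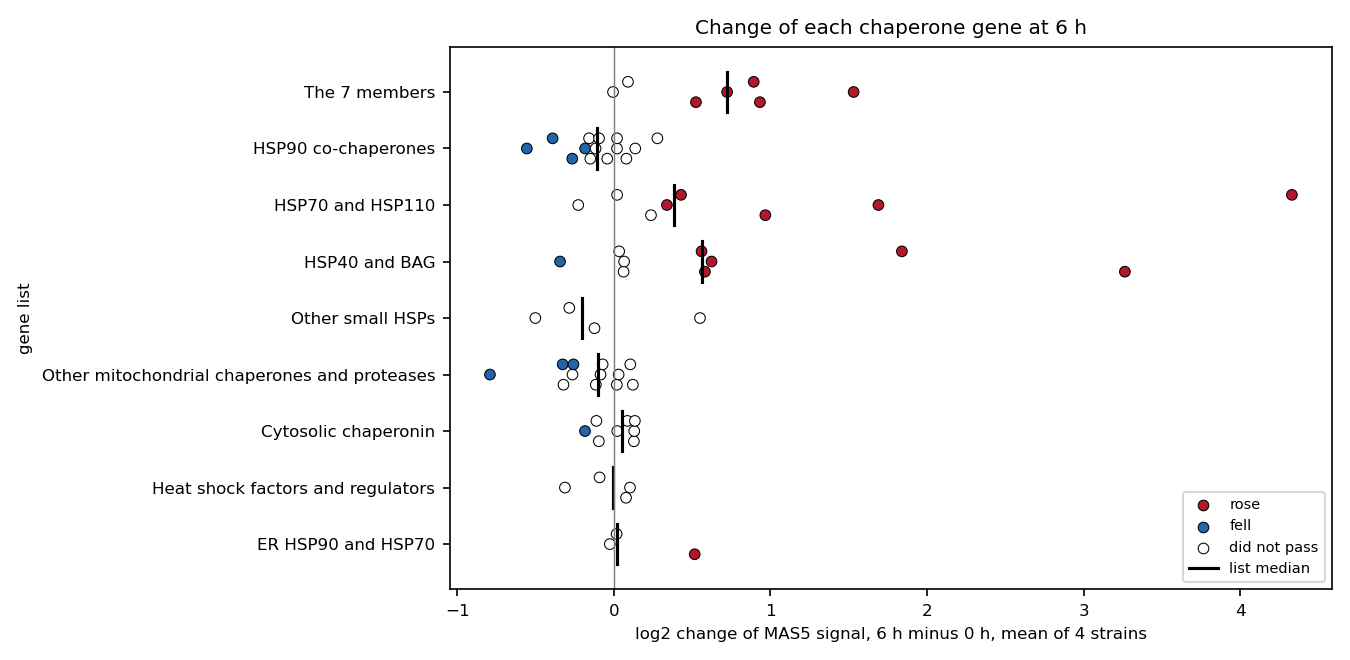
Log2 change of the MAS5 signal at 6 h against 0 h, mean of 4 strains, of the 7 genes and of each tested gene in 8 chaperone lists; red points rose, blue points fell, open points did not pass, and black bars are list medians. The median of the 7 genes is 0.72, that of the HSP70 list 0.38 and that of the HSP90 co-chaperones -0.11.

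For each of the 7 genes, the genes most like it over the 12 group means of log2 signal were taken by Pearson r, as a description of groups that share mice, dose and time. Genes with clone or placeholder names such as Rik, Gm or LOC were passed over. The genes named were picked as the highest of all others tested over only 12 points, and no p was computed for them. Hsp90aa1 was followed most closely by Jmjd6 (0.96), Hspa1b (0.94) and Zfand5 (0.93), and Hspe1 by Dnaja1 (0.97), Eif4e (0.93) and Fhad1 (0.93). For Hspb8 they were Tnfrsf12a (0.98), Cd14 (0.96) and Thbd (0.95), for Hspb1 Cct7 (0.93), Mllt11 (0.90) and Psmd14 (0.89), and for Hspd1 Btc (0.92), Cdkn2b (0.92) and Tpm4 (0.91). Cryab had Bpgm (0.90), Ryr1 (0.89), a calcium channel of skeletal muscle, and Plscr3 (0.89), and Trap1 had Il17a (0.92), Smyd2 (0.91) and Eid2 (0.90). Among the 7 genes themselves, r over the group means was 0.86 between Hsp90aa1 and Hspe1 and 0.86 between Hsp90aa1 and Hspd1. It was 0.82 between Hsp90aa1 and Hspb8, 0.80 between Hspd1 and Hspe1, and 0.48 between Hspb1 and Hspb8.

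Markers of other cell types moved beside these changes. Of 7 hepatocyte markers 6 rose at 6 h as the mean of the strains, beside 12.5% of all genes higher and 20.1% lower. So did 4 of 6 endothelial, 4 of 5 tested neutrophil and 1 of 7 Kupffer cell and macrophage markers. The same held for 1 of 4 tested bile duct and 1 of 5 tested smooth muscle and pericyte markers. Of 6 stellate cell markers 2 rose and 2 fell, and of 7 skeletal muscle markers none passed by limma, with 3 at an unadjusted p under 0.05. In SJL at 3 h, where Hsp90aa1 and Hspb8 rose, 4.48% of all genes rose and 5.45% fell. Among the markers 4 of 7 Kupffer cell and macrophage, 2 of 6 stellate cell and 2 of 7 skeletal muscle markers fell. A fall was also called for 1 of 7 hepatocyte and 1 of 6 endothelial markers, and a rise for 1 of 5 neutrophil and 1 of 4 bile duct markers. There the summed neutrophil signal ran from 862 to 2167 at 3 h and 281 to 829 at 0 h. In SMJ at 6 h 3 of 4 bile duct markers rose (8.58% of all genes). The sum of 5 such markers ran from 470 to 1089 at 6 h and 173 to 208 at 0 h. The summed neutrophil signal ran from 449 to 2367 at 6 h and 281 to 829 at 0 h for SJL, and from 1075 to 1977 at 6 h and 77.3 to 243 at 0 h for SMJ. It ran from 357 to 930.3 at 6 h and 145 to 223 at 0 h for DBA, and from 751 to 973 at 6 h and 129 to 395 at 0 h for C57, with Cxcr2 and Camp above the median of all values on only 3 and 2 arrays. RNA quality was read from actin and Gapdh, as the signal at the 3' end over that at the 5' end. The actin ratio averaged 1.71, 1.46 and 1.45 at 0 h, 3 h and 6 h for SJL and 1.57, 1.44 and 1.35 for SMJ. It averaged 1.77, 1.6 and 1.44 for DBA, and 1.64, 1.58 and 1.67 for C57. The Gapdh ratio averaged 0.766, 0.741 and 0.715 for SJL, 0.719, 0.751 and 0.746 for SMJ, 0.721, 0.726 and 0.724 for DBA, and 0.766, 0.768 and 0.779 for C57. The part of these in the chaperone changes was not tested.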

How the data were processed

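Total RNA of 36 livers had been hybridised to 1-colour Affymetrix arrays. The authors deposited intensity values that their processing notes call MAS5 (no version is stated), on a linear scale. As deposited, every array averaged 150 once 2% of values were dropped at either end, so no scaling was added. Of 45101 probe sets, 64 were controls, 34945 carried 1 symbol, 932 several and 9160 none. A gene was represented by its single-symbol probe set with the highest mean log2 signal, passing over names in _s_at or _x_at where another existed, and was tested if at least 3 arrays exceeded the median, 30.8. The offset 2.77 is the 10th percentile of all values, and it makes changes of dim genes smaller. The 12 group means were fitted with limma 3.58.1 in R 4.3.3 (24 residual degrees of freedom, two-sided moderated tests). Correlations used 100000 permutations. Coordinates and promoters are RefSeq's, GRCm38.p6. The fit was tested on simulated data. The number of arrays limits precision. Named genes were all members, up to 3 per chaperone list by smallest p with any that moved against its list, and the 3 nearest genes of each member; other list genes were named after their values were seen. The members and lists were chosen with earlier results of these data known.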

Additional observations from a re-analysis of the deposited data

Results flagged for a closer look

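The results here differed between strains under the same contrast, by a test of the difference itself. For the 6 h change over the 4 strains, limma's F test gave adjusted p values of 0.000389 for Hsp90aa1, 0.00459 for Hspb1, 0.0223 for Hspb8, 0.0145 for Hspd1 and 0.00919 for Hspe1. The change in SJL exceeded the mean change of the other 3 strains by 1.05 for Hsp90aa1 and 1.00 for Hspb8 at 3 h, and by 1.52 for Hsp90aa1 at 6 h, on the log2 scale. The 6 h change in SMJ exceeded that of the others by 0.54 for Hspd1. The 6 h change in C57 differed from that of the others by -1.57 for Hsp90aa1, -2.52 for Hspb1, -1.27 for Hspb8, -0.47 for Hspd1 and -1.14 for Hspe1. Each was adjusted over all genes tested, with 3 mice per strain and time. Several of these calls ended when 1 mouse was left out, as given above. Among them were Hspb8 at 3 h in SJL, and Hspd1 in SMJ and in C57. The SJL differences of Hsp90aa1 did not pass with all its probe sets averaged.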

How the results depend on the processing

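The 5 rises at 6 h as the mean of the strains passed under all 9 other settings and without any 1 mouse. No called value changed sign under these settings, which do not include the choice of another single probe set. That choice turned the sign of several called values. Among them were Trap1 at 0 h in SJL and C57, and Hspb8 in the C57 difference and at 6 h in SMJ. With the dim 1433251_at, Hsp90aa1 turned for SJL at 0 h, for its 3 h change and for the SJL difference at 6 h. Quantile normalization left 1 call at 3 h (3 in the report) and 1 in DBA at 6 h (2 in the report), the latter also with all probe sets averaged (1) and with only the arrays compared (1). Averaging probe sets left 1 of 4 calls for SJL at 0 h, 2 of 5 for the C57 difference and 3 of 5 in the F test. With only the arrays compared 2 of 5 calls were left in SJL at 6 h, 2 of 4 for SJL at 0 h and 3 of 5 for the C57 difference. Without 1 mouse the counts lay between 1 and 2 in DBA at 6 h, 2 and 4 for SJL at 0 h and 3 and 5 for the C57 difference. The causes were not tested. Of 1984 single-gene values at other settings 71 lost and 24 gained a call, and of 8064 without 1 mouse 137 and 29. Some of these contrasts and the list counts were added after seeing the data. HSP90 co-chaperones lower numbered 2 to 4, other mitochondrial genes lower 3 to 5 and higher 0 to 2. Scaling each array by its 75th percentile moved the split of all genes at 3 h to 579 higher and 382 lower (434 and 553 as deposited), in DBA at 6 h to 908 and 651 (672 and 1059), in SMJ at 6 h to 1401 and 1354 (1199 and 1722), for SJL at 0 h to 809 and 849 (877 and 812) and for the C57 difference to 201 and 480 (306 and 345), with the median change moved by less than 0.1. No paired analysis was possible because each mouse number belongs to 1 mouse and pairs none. Dim signals limit Cryab.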
